A study of Mus musculus with 10 samples.

Results

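The genes described here encode the proteins of the cytosolic ribosome, and they were followed through 10 lines of B16OVA, a mouse melanoma of C57BL/6 origin that carries the model antigen ovalbumin (OVA). They were taken by symbol, as every gene with a transcript cluster of its own on the array whose symbol names a cytosolic ribosomal protein, and there were 70 of them among 23360 genes with such a cluster. Of the 70, 41 belong to the large subunit and 29 to the small subunit, and 7 of them are paralogues of a conventional member (Rpl3l, Rpl7l1, Rpl10l, Rpl22l1, Rpl39l, Rps4l and Rps27l). A transcript cluster is the array's unit of measurement, a set of probes read as 1 value, and where a symbol had several the brightest stood for it. A further 14 ribosomal protein symbols, Rpl10, Rpl13a, Rpl22 and Rpl24 among them, occurred only in clusters shared with other symbols and were not members.

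Each line had 1 array. The parent line is B16OVA itself. The 3 NIMM lines (1, 3 and 4) had been established from tumours in naive B6 mice, the 3 IMM lines (1, 2 and 8) from tumours in OVA-immunized B6 mice, and the 3 GKO-IMM lines (1, 2 and 3) from tumours in OVA-immunized hosts that lack interferon-gamma, so that all 9 established lines had passed through a mouse and the parent line had not. On re-challenge of OVA-immunized mice only the IMM lines grew, whereas those of the NIMM and GKO-IMM groups failed to. The labels do not say whether the lines of a group came from separate mice, and p-values then measure only the spread between these lines.

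Ribosomal proteins are made in matched amounts and assembled with ribosomal RNA in the nucleolus. Their mRNAs carry a pyrimidine tract at the very start of the transcript, the 5′ terminal oligopyrimidine (TOP) motif, through which growth signalling by mTOR controls their translation. Several of their introns hold small nucleolar RNAs, which guide the chemical modification of ribosomal RNA and are released when the host transcript is spliced. In mice, mutations of Rps19, Rps20 and Rpl24 alter pigmentation, which ties this gene family to the melanocyte lineage.

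The annotated starts of the genes were searched for the pyrimidine tract. RefSeq promoters on build GRCm38.p6 were found for 50 of the 70 genes, with 58 annotated starts between them, each covering 250 bases before and 50 bases after the start. An unbroken run of C and T of at least 5 bases covered the annotated start in 16 of the 58 (27.6%), against 10.1% of all 32851 promoters in the table, so most annotated starts of the family did not lie in such a run. The next 4 sequences run from 40 bases before the start to 10 bases from the start on, and are shown because they carry the tract at the annotated start. The capitals mark the run of C and T.
Rps6, chr4:86857358-86857407, minus strand: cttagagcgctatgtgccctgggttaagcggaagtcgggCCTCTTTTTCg
Rplp2, chr7:141447611-141447660, plus strand: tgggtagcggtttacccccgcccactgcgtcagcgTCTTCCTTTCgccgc
Rpl28, chr7:4792925-4792974, plus strand: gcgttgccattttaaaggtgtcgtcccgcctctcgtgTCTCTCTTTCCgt
Rpl38, chr11:114668540-114668589, plus strand: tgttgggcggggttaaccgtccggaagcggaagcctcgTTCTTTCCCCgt

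The core letters bound by ETS factors, CCGGAA on either strand, stood in 31 of the 58 windows (53.4%) against 14.9% of all promoters. CACGTG, the E box that Myc can bind, stood in 6 (10.3%) against 7.15%, and TATAAA on either strand in 4 (6.90%) against 13.6%. The 4 sequences that follow belong to genes whose values are described below, and the capitals mark CCGGAA or its reverse complement within the same stretch of 50 bases.
Rpl37, chr15:5116573-5116622, plus strand: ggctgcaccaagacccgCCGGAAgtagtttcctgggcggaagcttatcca
Rps3a1, chr3:86142659-86142708, minus strand: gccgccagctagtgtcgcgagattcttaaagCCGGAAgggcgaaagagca
Rpl26, chr11:68901526-68901575, plus strand: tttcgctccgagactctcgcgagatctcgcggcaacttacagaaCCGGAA
Rpl39l, chr16:10170188-10170237, plus strand: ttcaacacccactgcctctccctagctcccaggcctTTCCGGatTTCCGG
These matches describe letters near annotated starts and were not tied to binding in these lines.

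Values are log2 intensities, and differences are between group means on that scale with the standard error (SE) of a linear model fitted with limma to all 16352 genes above a filter on dim genes. A gene is said to have risen or fallen where its Benjamini-Hochberg adjusted p, over all these genes and two-sided, was under 0.05. Of the 70 genes 68 passed the filter, and Rpl10l, the testis paralogue of Rpl10, and Rps26 did not. Of the melanocyte markers 7 of 7 passed the filter, with values of 9.14 to 13.0 in every line, as the B16 label calls for. The 6 leukocyte markers lay at 4.34 to 4.91 (2 passed) and the 4 fibroblast markers at 4.48 to 5.60 (3 passed). The 2 endothelial markers lay at 4.72 to 5.25 (2 passed) and the 1 keratinocyte marker at 4.59 to 5.01 (1 passed). Passing the filter thus did not separate the cell types, whereas the level did. Over all genes, NIMM 4 stood apart from the other NIMM lines and lay nearer to the GKO-IMM lines. The SD across genes of its log2 difference was 0.229 and 0.221 from NIMM 1 and NIMM 3. From the GKO-IMM lines it was 0.152 to 0.171. Over the 68 ribosomal protein genes, NIMM 4 lay nearer to NIMM 1 and NIMM 3 (SD 0.116 and 0.123) than to the GKO-IMM lines (0.151 to 0.175). Without NIMM 4 the number of genes called between IMM and GKO-IMM rose from 191 to 1208. Between GKO-IMM and NIMM it rose from 20 to 1264. Results that rest on NIMM 4 are therefore also given without it. With 1 array per line, it is the number of arrays that limits precision. In bulk RNA a lower value can mean fewer cells with the transcript or less of it per cell, which cannot be told apart.

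Rps20, a small subunit protein whose mouse mutants have dark skin, read 5.56 in the parent, 5.34, 5.45 and 5.48 in the NIMM lines, 5.04, 5.08 and 5.17 in the IMM lines and 5.25, 5.25 and 5.27 in the GKO-IMM lines. The groups did not overlap and stood in the order NIMM, GKO-IMM, IMM, with the parent above all of them. Between IMM and NIMM the difference was -0.33 (SE 0.06, adjusted p = 0.0513), just short of the threshold, and it passed under 5 of 21 alternatives, with adjusted p-values from 0.0382 to 0.341. GKO-IMM differed from NIMM by -0.17 (SE 0.06, adjusted p = 0.275). A second, dimmer cluster of Rps20 gave -0.11 between IMM and NIMM. The values of Rps20 lie not far above the filter at log2 4.74. They are within the range of the fibroblast markers, 4.48 to 5.60.

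Across the family, 1 gene of 68 fell between IMM and NIMM, where 0.428% of all genes were called and 0.312% fell, and without NIMM 3 the count was 0. Between IMM and the mean of the other groups 1 also fell, where 0.807% of all genes were called and 0.501% fell, and that count became 0 when any single line other than NIMM 4 or IMM 2 was left out. No ribosomal protein gene was called between IMM and GKO-IMM (1.17% of all genes) or between GKO-IMM and NIMM (0.122%). At an unadjusted limma p under 0.05 there were 18 of 68 (26.5%) between IMM and NIMM, against 14.1% of all genes. Between IMM and the mean of the other groups there were 14 (20.6%, against 16.4%). Between IMM and GKO-IMM there were 13 (19.1%, against 17.2%), and between GKO-IMM and NIMM 11 (16.2%, against 13.9%).

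**Figure D1:**
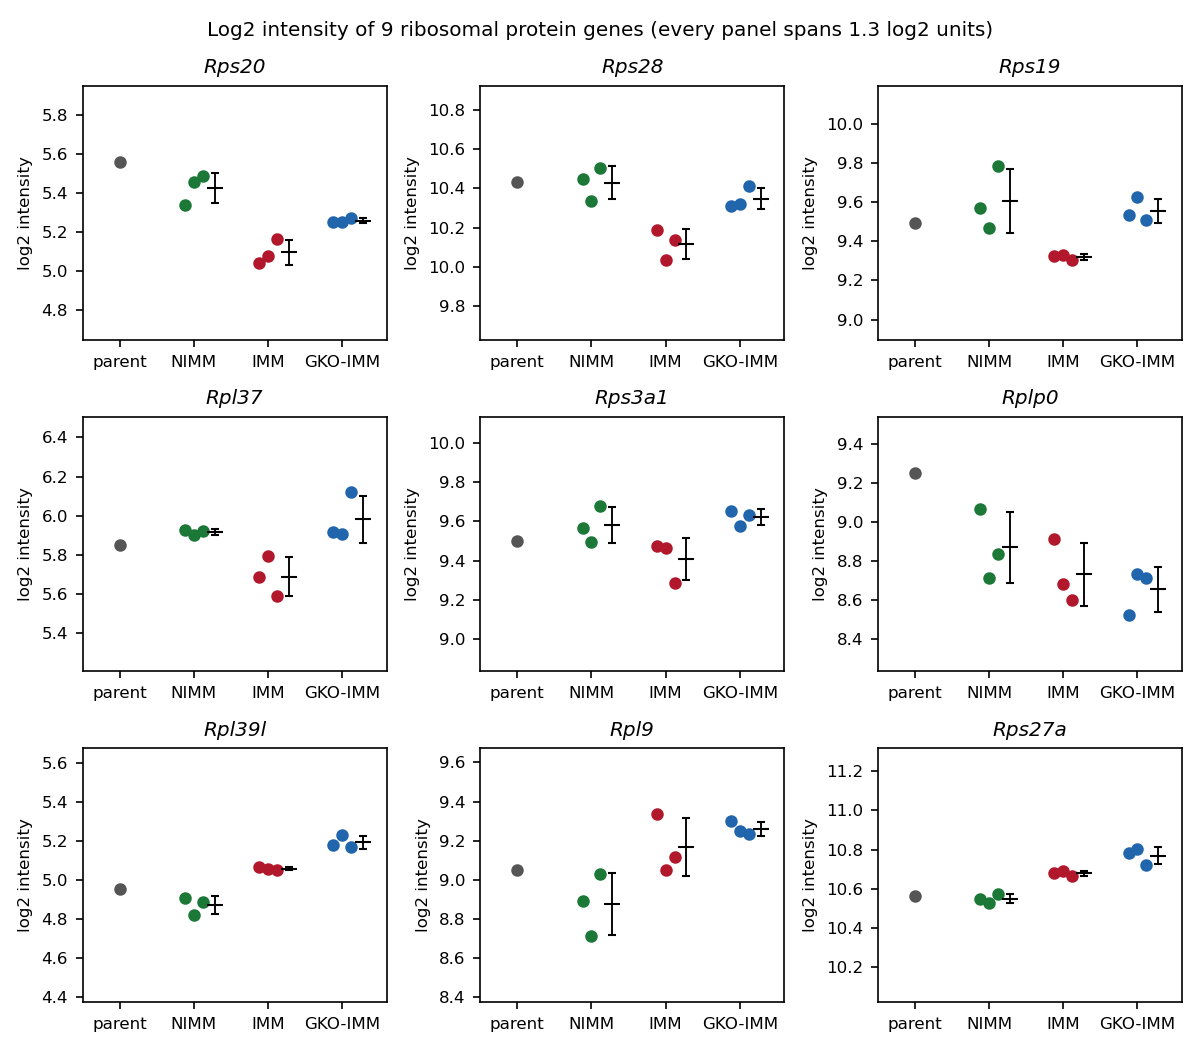
Log2 intensity (vertical axis, every panel spanning 1.3 log2 units) of 9 ribosomal protein genes in the parent and the 3 groups of established lines. Points are lines, and bars give the group mean and SD (n = 3). Rps20 is lower in both groups from immunized hosts than in NIMM and the parent, Rps28, Rps19, Rpl37 and Rps3a1 are lowest in IMM, and Rpl39l, Rpl9 and Rps27a are lowest in NIMM.

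Other genes too were lowest in the IMM lines. Rps28, which lies at the mRNA exit of the small subunit, read 10.45, 10.34 and 10.50 in the NIMM lines, 10.19, 10.03 and 10.13 in the IMM lines and 10.31, 10.32 and 10.41 in the GKO-IMM lines, with the parent at 10.43. All IMM lines were below all other lines. The differences, -0.31 (SE 0.07, adjusted p = 0.0787) from NIMM and -0.23 (SE 0.07, adjusted p = 0.116) from GKO-IMM, did not pass.

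Rps19, the gene most often mutated in Diamond-Blackfan anaemia in humans and another mouse dark skin gene, read 9.57, 9.47 and 9.78 in the NIMM lines, 9.32, 9.33 and 9.30 in the IMM lines, 9.53, 9.63 and 9.51 in the GKO-IMM lines and 9.50 in the parent. The IMM values lay within a few hundredths of each other and below every other line. The difference was -0.29 (SE 0.08, adjusted p = 0.170) from NIMM and -0.24 (SE 0.08, adjusted p = 0.157) from GKO-IMM. Rpl37, a zinc-binding protein of the large subunit, read 5.93, 5.90 and 5.92 in NIMM, 5.69, 5.79 and 5.59 in IMM and 5.91, 5.91 and 6.12 in GKO-IMM, and again all IMM lines were below the others. Its difference of -0.29 from GKO-IMM (SE 0.07, adjusted p = 0.0851) had the smallest p of the family in that comparison.

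Altogether 8 of the 68 genes had all 3 IMM lines below all 6 other established lines (Rpl14, Rpl37, Rps3, Rps3a1, Rps19, Rps20 and Rps28 among them), against 2.95% of all genes, and 0 had all IMM lines above them, against 3.84%. Of the 8, Rps3a1 differed by -0.17 from NIMM and -0.21 from GKO-IMM (SE 0.07 each, adjusted p = 0.322 and 0.162). Rpl14 differed by -0.14 from each group (SE 0.06, adjusted p = 0.326 and 0.242) and Rps3, which also acts in DNA repair, by -0.09 and -0.13 (SE 0.06, adjusted p = 0.528 and 0.341). In the main fit, with all 9 lines, none of the 8 passed in any comparison of groups. Some passed under other settings, as given for Rps20 above. Without NIMM 4, Rps19 and Rpl37 were called lower in IMM than in GKO-IMM (limma adjusted p = 0.0334 and 0.0377), as they were with array weights (0.0440 and 0.0286). They were the 2 of 68 genes called in each setting. Of all 16352 genes 1208 and 1037 were called there, a larger share than that of the family. Rps28 was called lower in IMM than in NIMM with trend and robust priors (limma adjusted p = 0.0446).

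Over the family, the IMM lines stood slightly low. Between IMM and NIMM 46 of 68 genes were below 0 (67.6%, against 43.4% of all genes), with a median of -0.047 against 0.018, and the groups failed to overlap in 14 genes with IMM lower and 9 with IMM higher, where the shares over all genes were 7.25% and 11.3%. Between IMM and GKO-IMM 48 of 68 were below 0 (70.6%, against 45.8%), with a median of -0.038 against 0.010. There 20 genes did not overlap with IMM lower and 0 with IMM higher, against 12.5% and 13.3% of all genes. These medians are shifts of a few percent in intensity and describe the list, without a test.

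Between GKO-IMM and NIMM the family lay close to all genes with all 9 lines. The median was 0.010 for the family and 0.011 for all genes, 30 of 68 genes were below 0 (44.1%, against 46.1%), and 10 genes did not overlap with GKO-IMM higher and 9 with GKO-IMM lower (11.1% and 8.37% of all genes). Without NIMM 4 the median of the family was 0.027, against 0.0097 for all genes, with 24 of 68 genes below 0. It was -0.0011 without NIMM 3 and -0.0033 without GKO-IMM 3. The comparisons share groups, so their medians are not independent of each other. The small subunit had a median of -0.048 between IMM and NIMM and -0.088 between IMM and GKO-IMM over 28 genes, and the large subunit -0.047 and -0.025 over 40 genes. The difference between the subunits was not tested.

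**Figure D2:**
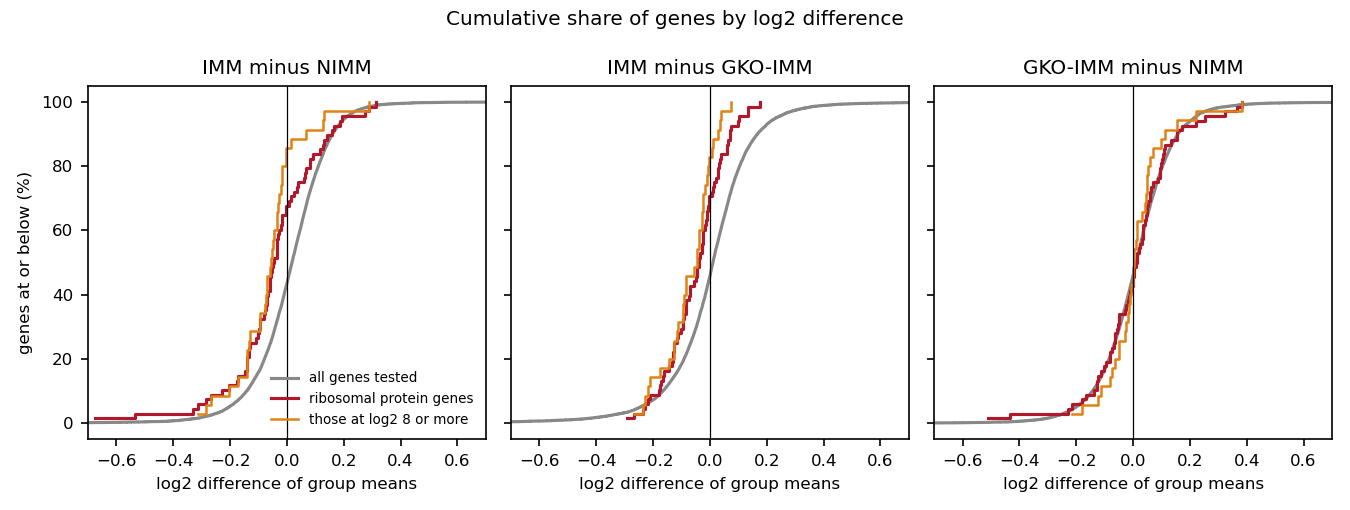
Cumulative percentage of genes (vertical axis) at or below each log2 difference of group means (horizontal axis) in 3 comparisons, for all 16352 genes tested, the 68 ribosomal protein genes and the 35 of them with a mean log2 intensity of at least 8. The ribosomal protein curves lie left of the curve of all genes in both comparisons of IMM and close to it between GKO-IMM and NIMM.

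By median and by sign, the low values in IMM were seen mainly among the brighter clusters. In the 35 genes with a mean log2 intensity of at least 8, a split made after the values were seen, 30 were below 0 between IMM and NIMM with a median of -0.054, and 29 between IMM and GKO-IMM with a median of -0.047. Among all 4066 genes as bright, 41.0% and 45.9% were below 0. The 33 dimmer genes had medians of 0.0072 and -0.015. An IMM line held the highest value of the 9 established lines in 1 of the 35 bright genes (2.86%), against 42.2% of all genes as bright, and the lowest in 21 (60.0%, against 31.4%).

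Line by line, NIMM 4 and IMM 1 formed the extremes. NIMM 4 had the highest value of the 9 lines in 19 of the 35 bright genes (54.3%, against 13.4% of all genes as bright) and the lowest in 0, and its median deviation from each gene's own median was 0.067. IMM 1 had the lowest value in 11 and IMM 8 in 7, with median deviations of -0.048 and -0.012. Without NIMM 4 the median of the bright genes between IMM and NIMM was -0.038 with 25 of 35 below 0, and that of all 68 genes was -0.024, compared with -0.047 with it. IMM minus GKO-IMM does not involve NIMM 4, and leaving out any other line kept the median of the 68 genes between -0.051 and -0.034.

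**Figure D3:**
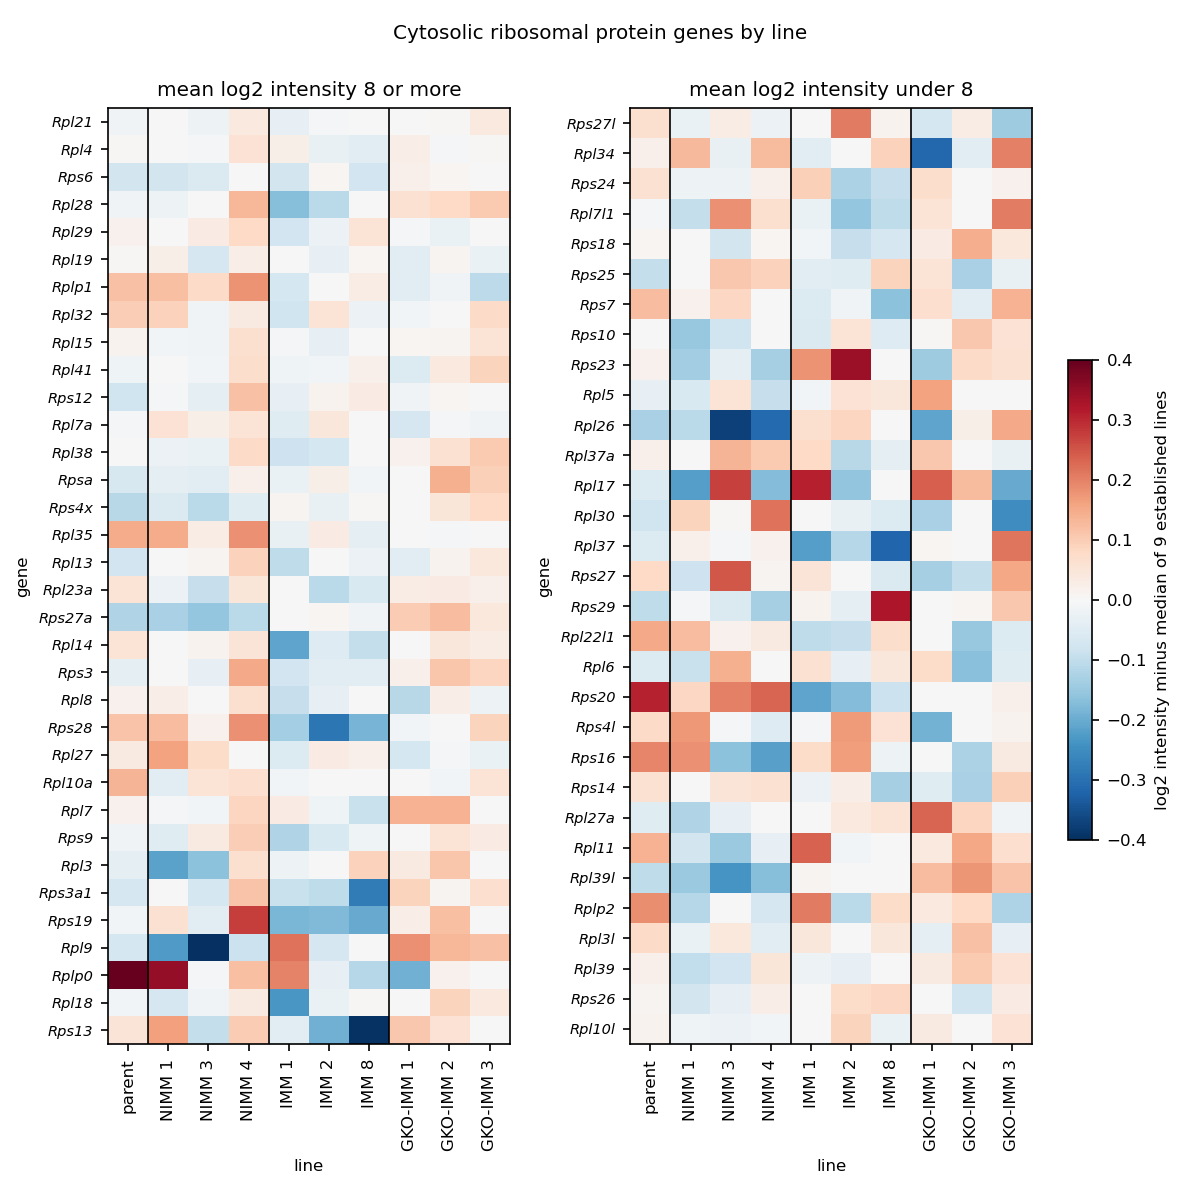
Log2 intensity of ribosomal protein genes (rows) in the 10 lines (columns), as the difference from the gene's median over the 9 established lines, with genes ordered by brightness in 2 panels and colours cut at 0.4 in each direction. In the bright panel NIMM 4 is mostly above the median and the IMM lines mostly below, and in the dimmer panel Rps20 is high in the parent and all NIMM lines.

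Chromosome 7 holds 12 of the 68 genes per the RefSeq gene table. Their median was -0.094 between IMM and NIMM and -0.127 between IMM and GKO-IMM, against -0.035 and -0.027 for the 56 on other chromosomes. In the comparison with GKO-IMM 7 of the 12 did not overlap with IMM lower (Rpl28, Rps3, Rps9, Rps13 and Rps19 among them), which is 58.3%, against 24.7% of all 1309 genes of chromosome 7 and 11.5% of the genes of other chromosomes. All genes of chromosome 7 had medians of -0.028 and -0.036, so the low values of these members went along with lower values of their chromosome in IMM. The part of the chromosome in the result was not tested.

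A few genes went the other way. The limma F test across the 3 groups called 3 of 68 genes, where 1.02% of all genes were called. This test takes no direction, and the 3 genes did not all go the same way. Rpl39l was among them. Rpl39l, a paralogue of Rpl39 that is mostly a testis gene in mice, read 4.95 in the parent, 4.91, 4.82 and 4.89 in the NIMM lines, 5.07, 5.05 and 5.05 in the IMM lines and 5.18, 5.23 and 5.17 in the GKO-IMM lines (limma F test, adjusted p = 0.0416). The groups did not overlap, and both groups from immunized hosts were above NIMM. The difference from NIMM was 0.32 (SE 0.05, adjusted p = 0.0663) for GKO-IMM and 0.19 (SE 0.05, adjusted p = 0.187) for IMM. These values lie only slightly above the filter at 4.74. Rpl39 itself read 4.77 to 4.91 in NIMM, 4.83 to 4.86 in IMM and 4.90 to 4.97 in GKO-IMM.

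The call of Rpl39l was not steady. It passed the F test under 9 of 19 alternatives, with adjusted p-values of 0.00983 to 0.149.

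Other genes above NIMM in both groups from immunized hosts were Rpl9 and Rps27a. Rpl9 read 8.89, 8.71 and 9.03 in NIMM, 9.34, 9.05 and 9.12 in IMM and 9.30, 9.25 and 9.23 in GKO-IMM, a difference from NIMM of 0.29 for IMM (SE 0.09, adjusted p = 0.224) and 0.38 for GKO-IMM (SE 0.09, adjusted p = 0.134). Rps27a, which is made as a fusion with ubiquitin, read 10.53 to 10.57 in NIMM, 10.67 to 10.69 in IMM and 10.72 to 10.80 in GKO-IMM, and differed by 0.13 and 0.22 (SE 0.05, adjusted p = 0.318 and 0.134). Rpl26, which in human cells binds the p53 mRNA, and Rps23, a protein of the decoding centre, were higher in IMM than in NIMM by 0.31 (SE 0.10, adjusted p = 0.207) and 0.28 (SE 0.09, adjusted p = 0.237). Neither passed. Without NIMM 4 the comparison of GKO-IMM with NIMM called 5 of the 68 genes, with Rpl9, Rpl39l and Rps27a higher among them. Of all 16352 genes 1264 were called there, a similar share.

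Several of these values depended on which cluster stood for the gene. Of 23 symbols with clusters of different values, the clusters disagreed in the sign of the difference for 7 between IMM and NIMM, 12 between IMM and GKO-IMM and 10 between GKO-IMM and NIMM. Rpl41 had 5 clusters with IMM minus NIMM from -0.23 to 0.23, and the 2 at these ends lay at mean values of 11.3 and 11.0. Rplp1 read -0.14 on its bright cluster and 0.32 on the other, and Rps28 read -0.31 and 0.09. Rpl26 gave -0.15 on a shared cluster and 0.31 on its own. Rps19 had 3 clusters, of which 2 held identical values, and the third gave 0.01. Between IMM and GKO-IMM, Rps3a1 read -0.21 on its bright cluster and 0.10 on the other, and Rps20 read -0.16 and 0.01. There Rps28 (-0.23 and -0.17) and Rps19 (-0.24 and -0.08) were below 0 on both. The deposited files give no positions of the clusters, so whether a cluster lies in the gene itself, in an intron or in a near-identical copy was not tested.

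**Figure D4:**
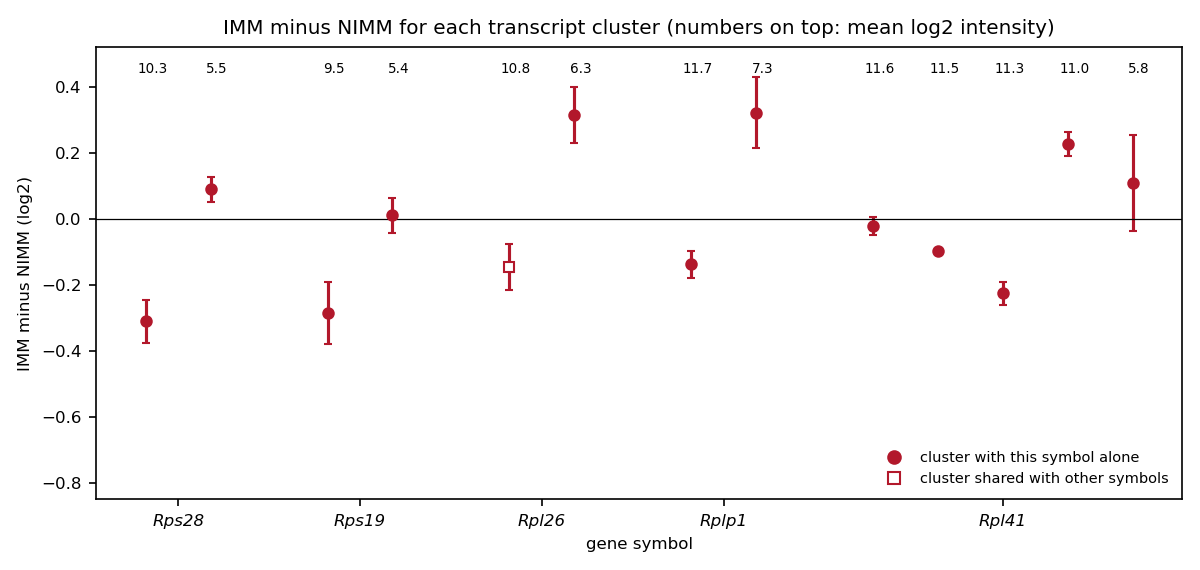
Difference IMM minus NIMM (log2, vertical axis) for every transcript cluster with distinct values that lists 1 of 5 ribosomal protein symbols (horizontal axis), brightest first, with bars giving the standard error from the SDs of the 2 groups of 3 lines and the mean log2 intensity printed on top. Filled circles are clusters of that symbol alone and open squares clusters shared with other symbols. Within each symbol the clusters differ in sign.

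The ribosomal stalk, which recruits elongation factors, is built on Rplp0 with Rplp1 and Rplp2. Rplp0 read 9.25 in the parent, 9.07, 8.71 and 8.84 in NIMM, 8.91, 8.68 and 8.60 in IMM and 8.52, 8.73 and 8.72 in GKO-IMM, so the parent was above all established lines and the groups overlapped. Rplp1 was lower than NIMM in both other groups, by -0.14 in IMM (SE 0.06, adjusted p = 0.328) and -0.18 in GKO-IMM (SE 0.06, adjusted p = 0.232), and Rplp2 read 4.76 to 5.09 over all established lines. Rpl5 and Rpl11, which together restrain Mdm2 when ribosome assembly is disturbed, differed by 0.06 (SE 0.07, adjusted p = 0.699) and 0.16 (SE 0.08, adjusted p = 0.373) between IMM and NIMM. Rps6, the target of S6 kinases, differed by less than 0.01 with an SE of 0.06 (adjusted p = 0.984), and Rpsa, which also serves as a laminin receptor, by 0.02 (SE 0.06, adjusted p = 0.931).

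Among the paralogue pairs, the 6 paralogues that passed the filter had a median of 0.038 between IMM and NIMM, and none was called there. Rpl22l1 differed by -0.10 (SE 0.07, adjusted p = 0.539), and Rpl7l1 by -0.15 (SE 0.08, adjusted p = 0.442) where Rpl7 differed by -0.05 (SE 0.06, adjusted p = 0.772). Rps27l, a p53 target in human cells, differed by 0.08 (SE 0.07, adjusted p = 0.642) and Rps27 by -0.06 (SE 0.10, adjusted p = 0.810). Rpl3l, a gene of skeletal and heart muscle, lay at 4.81 to 4.97 in all established lines, and Rps4l and Rps4x differed by 0.04 and 0.07 (adjusted p = 0.875 and 0.603).

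The parent line stood above all 9 established lines for 10 of the 68 genes and below them for 3, against 12.4% and 13.5% of all genes. With 1 array it carries no test. Rplp0 stood 0.53 and Rps20 0.31 above the established median. The 3 genes farthest below were Rpl26 (-0.13), Rps27a (-0.12) and Rps4x (-0.11). The median over the family was 0.0056.

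The small nucleolar RNAs inside these genes mostly had lower values than NIMM in both groups from immunized hosts. Of 15 that passed the filter, 14 were below 0 between IMM and NIMM with a median of -0.199, and 12 between GKO-IMM and NIMM with a median of -0.205, against 43.4% and 46.1% of all genes. The 2 comparisons share the NIMM lines. Between IMM and GKO-IMM the median was -0.0080 with 8 of 15 below 0. Snord35b, a ribose methylation guide, read 7.53 in the parent, 7.97, 7.66 and 7.75 in NIMM, 7.33, 7.29 and 7.28 in IMM and 7.38, 7.50 and 7.35 in GKO-IMM. It fell by 0.49 in IMM (SE 0.08, adjusted p = 0.0289), the 1 of 15 called there, where 0.428% of all genes were called and 0.312% fell. In GKO-IMM it differed from NIMM by -0.38 (adjusted p = 0.101).

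Snord15a within Rps3 was lower in IMM than in the mean of the other groups (-0.33, SE 0.06, adjusted p = 0.0411). It was the 1 of 15 called there, where 0.807% of all genes were called and 0.501% fell. Snora68 was the exception, at 0.18 between IMM and NIMM (SE 0.07, adjusted p = 0.283). Probes in a small nucleolar RNA and in its host intron cannot be told apart in total RNA without strand or position of the clusters.

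**Figure D5:**
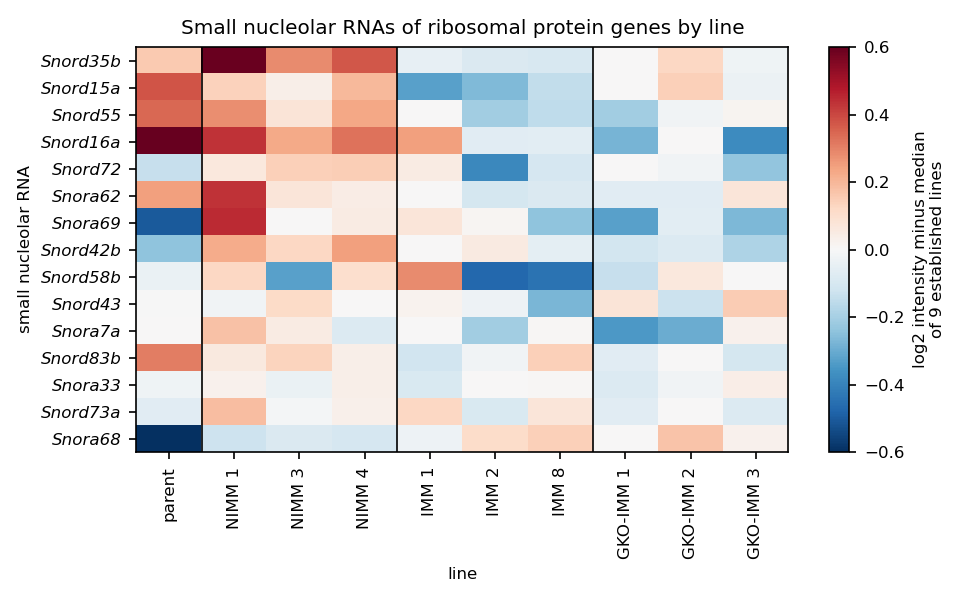
Log2 intensity of 15 small nucleolar RNAs that lie within ribosomal protein genes (rows) in the 10 lines (columns), as the difference from the median of the 9 established lines. The NIMM columns are mostly above the median, and Snora68 at the foot is the 1 with a higher mean in IMM than in NIMM.

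The wider machinery of ribosome production showed no gene called. This held for 19 other TOP mRNAs and relatives, 57 ribosome assembly genes, 12 genes of RNA polymerase I and its regulators and 69 mitochondrial ribosomal protein genes, in each comparison, at the limma threshold that called 0.428%, 1.17%, 0.122% and 0.807% of all genes. At an unadjusted p under 0.05 between IMM and NIMM there were 4, 10, 2 and 10 of them, against 14.1% of all genes. Their medians between IMM and NIMM were -0.035, -0.046, -0.041 and -0.019, and between IMM and GKO-IMM -0.021, -0.0019, 0.0089 and 0.022. Mitochondrial ribosomal protein genes were thus below 0 in 27 of 69 cases between IMM and GKO-IMM, where the cytosolic ones were below 0 in 48 of 68. The difference between the lists was not tested. Myc, which drives the transcription of ribosomal protein genes and of RNA polymerase I, differed by -0.22 between IMM and NIMM (SE 0.08, adjusted p = 0.271), and Rack1, a small subunit component, by -0.18 (SE 0.06, adjusted p = 0.258). Nap1l1, another TOP mRNA, differed by 0.21 (SE 0.07, adjusted p = 0.247).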

How the data were processed

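Trizol total RNA of 10 lines was hybridised to Affymetrix MoGene-2_0-st arrays, 1 per line, per the labels' protocols. The deposited raw columns hold linear intensity per transcript cluster, and the deposited normalized columns hold log2 values, which equal the log2 intensity minus each cluster's median over the arrays (largest difference 2.23e-06). For the summarization software, nothing is given in the sources used here. Log2 intensities were analysed without further normalization (array medians 31.9 to 32.5).

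Symbols were updated with a RefSeq gene table. Genes under percentile 30 of the mean over the 9 established lines (log2 4.74) were left out, which left 16352. limma 3.58.1 in R 4.3.3 (lmFit and eBayes, trend and robust off) fitted the 3 groups together, with 6 residual and 5.25 prior degrees of freedom, Benjamini-Hochberg adjusted p-values and a threshold of 0.05, two-sided. The parent entered no test. The fit was tested on simulated data. Python 3.11.15, pandas 2.3.3, numpy 2.4.6 and matplotlib 3.10.9 did the rest. Bases of C and T runs and motifs were counted in RefSeq promoters. Small nucleolar RNAs were assigned to a gene by lying within its interval, without strand.

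The genes and lists were chosen with earlier results of these data known. Genes were named by a rule. Per comparison it took every called gene and the 6 with the smallest p in each direction, and over all groups the 8 with the smallest F test p. It added the paralogue pairs, the stalk genes, Rpl5, Rpl11, Rpsa, Rps6, Rpl13a, Rps19, Rps20 and Rpl24, the 3 with the highest and the 3 with the lowest parent value against the established median, and 2 genes per direction of each outside list. A few genes chosen by this rule are not reported here. Rpl14, Rps3 and the clusters of Rpl41 were picked after their values were seen, as were the sequences shown. Rpl10, Rpl13a, Rpl22 and Rpl24 have no cluster of their own. Alternatives were quantile normalization, centred array medians, other filters, cluster means, array weights, trend and robust priors, a fit of the compared groups alone, the line number as a block, 15 subtracted from or 48 added to the intensities, and each line left out. Those added after seeing the data were the brightest cluster listing a symbol, a split at log2 8, and every cluster by itself.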

Additional observations from a re-analysis of the deposited data

How the results depend on the processing

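The number of ribosomal protein genes called between IMM and NIMM, 1, became 2 with quantile normalization, centred array medians, array weights and 15 subtracted, 3 with trend and robust priors, and 0 with only the groups compared, with the brightest cluster listing a symbol (83 genes) and among the genes at log2 8 or more. Between IMM and GKO-IMM 0 became 2 with array weights and 1 with only the groups compared. Between GKO-IMM and NIMM 0 became 5 with array weights, and 1 with no filter, with only the groups compared and with 15 subtracted. For IMM against the mean of the others 1 became 2 with trend and robust priors and with 48 added, and 0 with no filter, 15 subtracted, the brightest cluster and the genes at log2 8 or more. The F test count of 3 became 9 with array weights, 1 with a filter at percentile 50 and with the brightest cluster, and 0 at log2 8 or more. With each line left out these counts ranged, in the same order, from 0 to 1, 0 to 2, 0 to 5, 0 to 1 and 1 to 6. The 2, the 5 and the 6 came without NIMM 4, and the 0 between IMM and NIMM came without NIMM 3. All genes called without NIMM 4 numbered 1208, 1264 and 1442 of 16352 in the same comparisons, and 1037, 1217 and 1431 with array weights. The cause of these changes was not tested.

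The median over the genes between IMM and NIMM, -0.047, ranged from -0.056 to -0.024 with each line left out, that between IMM and GKO-IMM from -0.051 to -0.034, that between GKO-IMM and NIMM from -0.0033 to 0.027 and that against the mean of the others from -0.040 to -0.022. In the genes under log2 8 the 4 medians were 0.0072, -0.015, 0.035 and -0.0067. The median between GKO-IMM and NIMM also turned to -0.010 with quantile normalization. With the brightest cluster listing a symbol (83 genes) the 4 medians were -0.059, -0.046, 0.0042 and -0.036. The number of all genes called ranged over the alternatives from 13 to 167 around 70, from 30 to 1208 around 191 and from 5 to 1264 around 20.

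With the line number as a replicate block the calls were 1, 0, 5 and 0, and the IMM minus NIMM median was -0.017. All genes called were then 29, 586, 915 and 88 of 16352. The labels give no pairing by number. Correlations of deviations ran from -0.135 to 0.12 for same-numbered lines and from -0.116 to 0.147 for differently numbered ones. They showed no sign of a pairing, but with 3 lines per group they cannot exclude one. Signals near the filter, such as those of Rpl39l and Rps20, limit what low-intensity clusters can show.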
